A study of Homo sapiens with 8 samples.

Results

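Whether siRNA, itself short double-stranded RNA, or a lower TRIM44 moves the genes of RNA sensing and the interferon response was examined in HSC39, a human gastric cancer line of signet ring type. The set has 32 named genes, and a gene was used where a probe set of the array carries its symbol and no other. This held for 31 of them, with 1 probe set each, out of 18404 genes on 19158 such probe sets. STAT2, a partner of IRF9 in the interferon signal, was not measured. There were 8 arrays of 8 RNA samples: 4 of cells given All Stars negative siRNA, 2 of cells given TRIM44 siRNA 7 and 2 of cells given TRIM44 siRNA 9. The protocol in the labels has cells in RPMI with 10% serum and TRIM44 siRNA at 100 nM, there spelled nm, over 48 h; a dose of the negative siRNA is not stated, and the control cells that the sample labels give negative siRNA are named untreated in the design text. All groups come from this line, and an array of cells without siRNA was not analysed here, so the effect of transfection itself was not measured. The design text calls the samples biological replicates without saying how they were grown, so the p-values describe the spread among these arrays, and that spread may be technical. In such bulk RNA, fewer expressing cells and less RNA per cell cannot be told apart.

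Foreign RNA is sensed in the cytoplasm by the helicases RIG-I (RIGI) and MDA5 (IFIH1), and in endosomes by TLR3. The helicases signal through the mitochondrial adaptor MAVS and the kinase TBK1 to the transcription factor IRF3, which turns on interferon genes. Secreted interferon acts through a complex with STAT2 and IRF9 on a promoter element of many antiviral genes, whose products bind, cut or block viral RNA. TRIM44 has been described elsewhere as a stabiliser of MAVS protein, which an RNA array does not measure.

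Promoters show the element through which an interferon signal is read. ISG15 and IFIT1 were chosen as standard reporters of the response, IFIH1 and TLR3 as sensors. Each stretch runs from 190 bases before to 10 bases after the gene's start, 5′ to 3′ along the gene, from RefSeq on GRCh38.p14. Capitals mark matches to the core of the interferon-stimulated response element, searched as GAAA, any 2 bases and GAAA again, or on the other strand TTTC, any 2 bases and TTTC. Longer runs of capitals are overlapping matches.
ISG15, chr1:1013307-1013506, plus strand: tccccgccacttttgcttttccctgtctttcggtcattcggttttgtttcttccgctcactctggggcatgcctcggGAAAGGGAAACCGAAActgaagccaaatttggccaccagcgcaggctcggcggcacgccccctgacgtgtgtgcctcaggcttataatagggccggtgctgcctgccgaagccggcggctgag
IFIT1, chr10:89392433-89392632, plus strand: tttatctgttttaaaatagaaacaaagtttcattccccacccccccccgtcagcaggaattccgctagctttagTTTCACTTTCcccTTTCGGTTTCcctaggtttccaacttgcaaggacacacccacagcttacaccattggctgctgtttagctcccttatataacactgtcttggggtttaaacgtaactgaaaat
IFIH1, chr2:162318675-162318874, minus strand: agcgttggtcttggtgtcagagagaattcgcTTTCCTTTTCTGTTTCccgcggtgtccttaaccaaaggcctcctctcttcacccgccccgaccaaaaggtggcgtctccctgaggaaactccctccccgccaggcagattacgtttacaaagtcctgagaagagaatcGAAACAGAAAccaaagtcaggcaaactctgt
TLR3, chr4:186068966-186069165, plus strand: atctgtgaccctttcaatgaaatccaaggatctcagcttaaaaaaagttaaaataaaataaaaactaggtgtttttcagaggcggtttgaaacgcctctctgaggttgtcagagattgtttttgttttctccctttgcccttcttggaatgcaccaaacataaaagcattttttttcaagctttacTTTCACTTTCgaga

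Of the 31 genes, 24 have an entry in the promoter table, and 16 of these (66.7%) hold a match from 250 bases before to 50 bases after the start. In the whole table this holds for 996 of 27305 promoters (3.65%), and for 3.04% of the 14228 measured genes with an entry. A match describes letters and is no site of binding. The 433 measured genes with a match had a median log2 difference of 0.0074 between TRIM44 and negative siRNA, beside 0.0078 for those without. With siRNA 7 the medians were 0.00076 and -0.0028, and with siRNA 9 0.028 and 0.022. Over all measured genes, those with a match thus sat close to those without. Most of these 433 are not among the 31. The 16 of the 31 with a match had medians of -0.0050 with both reagents, -0.089 with siRNA 7 and 0.091 with siRNA 9. The 8 without a match had 0.026, -0.024 and 0.075.

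The median level of an array was 6.78 to 6.87 (log2). The 12 epithelial markers had mean levels of 9.21 to 13.05. Leukocyte markers (11 of 12 measured) ran from 4.23 to 11.53 with a median of 6.08, and LYZ at 11.53 and CD68 at 9.20 were the highest. Markers of plasmacytoid dendritic cells, the main interferon producers of blood, ran from 4.99 to 7.39 (4 of 5 measured). The 8 fibroblast and endothelial markers ran from 4.38 to 9.77 with a median of 6.53, and LUM was the highest. TRIM44 itself was 11.91, 12.02, 11.91 and 11.77 with negative siRNA, 10.85 and 11.27 with siRNA 7 and 11.10 and 11.14 with siRNA 9, without overlap between negative and TRIM44 siRNA. Its log2 difference of -0.81 (SE 0.099, limma adjusted p = 0.0449) leaves 57.0% of the negative level. An exact 2-sided permutation test over 70 assignments gave p = 0.0286, the smallest it can give. With single arrays left out the size stayed at -0.87 to -0.73, but the adjusted call ended for 7 of 8 arrays, all but siRNA 7 array 2, with adjusted p of 0.0587 to 0.291. It also ended after median centring (adjusted p = 0.0804), with all probe sets tested (adjusted p = 0.442) and where the reagent was a random block, at an estimated correlation within reagent of 0.345 (adjusted p = 0.226). Probe sets differ in brightness, so levels are compared between arrays and not between genes.

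With the TRIM44 reagents pooled, no interferon or RNA sensing gene passed the test. Of the 31 genes, 0 passed an adjusted p of 0.05 in limma, where 0.00522% of all probe sets did (TRIM44 alone), and the lowest adjusted p was 0.884. An unadjusted p under 0.05 was reached by 2 (5.43% of all probe sets), TBK1 higher (2.93%) and IFI6 lower (2.5%). Differences were above 0 for 18 genes, against 53.7% of all probe sets, with a median of 0.0068 beside 0.0085. In none of the 31 did all 4 TRIM44 siRNA arrays lie above the negative arrays, as 1.59% of all probe sets did, or below them, as 1.26% did. All 31 pooled intervals (95%, not adjusted for the number of genes) lay within a 2-fold change either way. Their highest upper bounds were 1.54-fold for TLR3, 1.43-fold for IFIH1 and 1.37-fold for TBK1. These intervals average over the reagents and take the 4 TRIM44 siRNA arrays as independent. With each reagent alone 30 of the 31 lay within a 2-fold change. The interval of TLR3 reached down to 0.497-fold with siRNA 7 and up to 2.03-fold with siRNA 9.

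**Figure D1:**
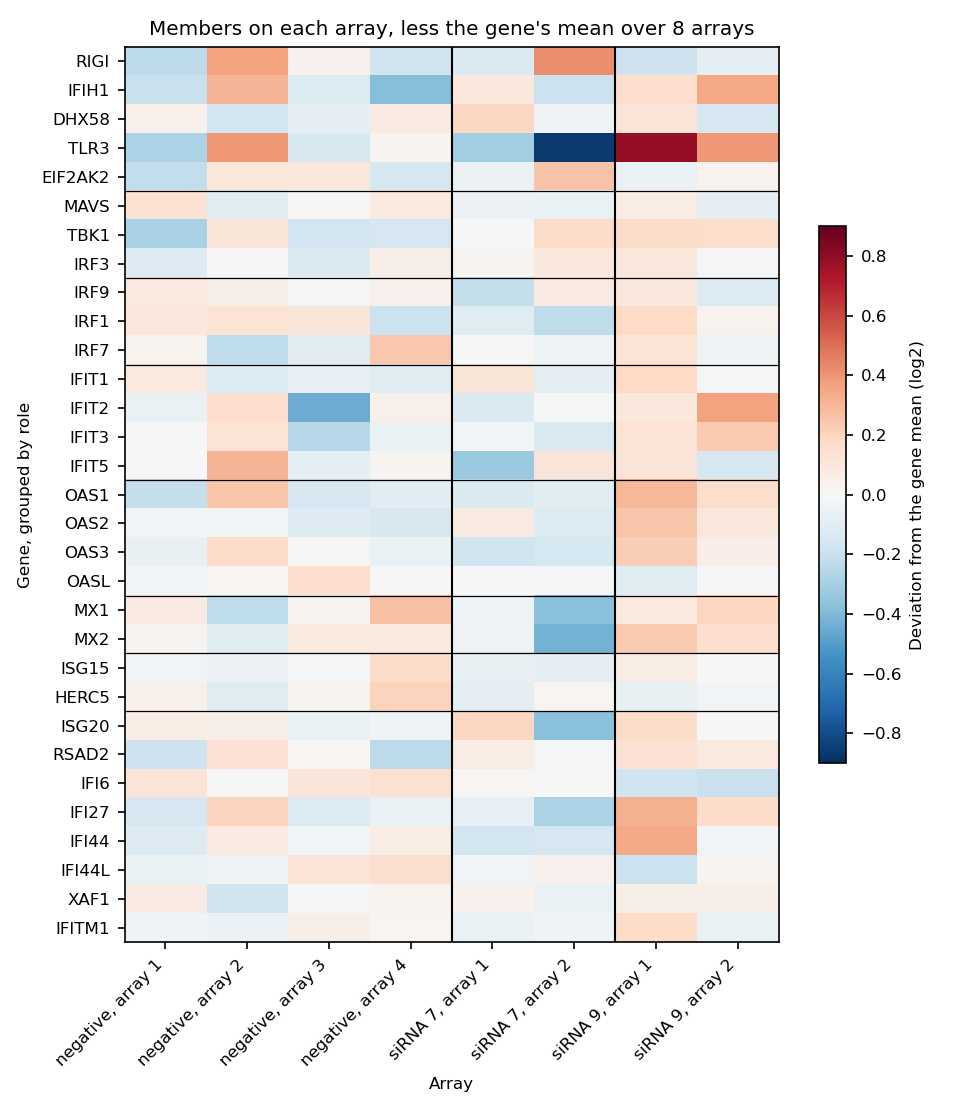
Rows are the 31 genes, grouped by role, and columns the 8 arrays; colour is the log2 level less the gene's mean over the arrays. TLR3 runs from 4.59 on siRNA 7 array 2 to 6.25 on siRNA 9 array 1, and no gene has all TRIM44 siRNA arrays on one side of the negative arrays.

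Among the cytoplasmic sensors, RIGI, which binds RNA with a triphosphate end, was 6.46, 7.06, 6.74 and 6.52 with negative siRNA, 6.57 and 7.12 with siRNA 7 and 6.51 and 6.61 with siRNA 9. Its groups overlapped, and the log2 difference for both reagents was 0.0079 (95% interval -0.32 to 0.34). IFIH1, the sensor of long double-stranded RNA, was 7.36, 7.87, 7.44 and 7.18 with negative siRNA, 7.66 and 7.37 with siRNA 7 and 7.72 and 7.92 with siRNA 9. Negative array 2 lay between the siRNA 9 arrays, and the difference was 0.20 (-0.11 to 0.52). DHX58, or LGP2, which tunes the other helicases, had 0.064 (-0.14 to 0.27). EIF2AK2, or PKR, the kinase that halts translation on binding double-stranded RNA, was 9.35, 9.66, 9.67 and 9.42 with negative siRNA, 9.52 and 9.82 with siRNA 7 and 9.51 and 9.60 with siRNA 9, with a difference of 0.088 (-0.14 to 0.31). TLR3 had 0.0059 (-0.61 to 0.62), the widest interval of the 31, and its reagents lay on opposite sides of negative siRNA.

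Of the signalling genes, MAVS was 9.40, 9.17, 9.27 and 9.35 with negative siRNA, 9.21 and 9.20 with siRNA 7 and 9.33 and 9.18 with siRNA 9. The groups overlapped, with a difference of -0.067 (SE 0.080, 95% interval -0.24 to 0.11). TBK1, the kinase downstream of MAVS, was 8.63, 9.04, 8.76 and 8.77 with negative siRNA, 8.93 and 9.10 with siRNA 7 and 9.09 and 9.08 with siRNA 9. All TRIM44 siRNA arrays but siRNA 7 array 1 lay above the negative arrays, and its difference, 0.25 (SE 0.095, unadjusted p = 0.0208, limma adjusted p = 0.884), was the highest of the 31. IRF3, which TBK1 phosphorylates, had 0.097 (-0.072 to 0.27). IRF9, IRF1 and IRF7, which carry or amplify the interferon signal, had -0.081, -0.064 and 0.025, with unadjusted p of 0.373 to 0.812 in limma.

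Effector genes are the usual readout of an interferon response. ISG15, a ubiquitin-like protein that the ligase HERC5 joins to other proteins, was 7.52, 7.50, 7.54 and 7.72 with negative siRNA, 7.48 and 7.46 with siRNA 7 and 7.62 and 7.56 with siRNA 9. Its difference was -0.042 (95% interval -0.22 to 0.13), so the interval ended at a 1.10-fold rise. HERC5 had -0.081 (-0.26 to 0.099). IFIT1, which holds viral RNA by its 5′ end, was 4.61, 4.40, 4.45 and 4.42 with negative siRNA, 4.63 and 4.44 with siRNA 7 and 4.70 and 4.51 with siRNA 9. Its groups overlapped, with a difference of 0.10 (-0.086 to 0.29). Its relatives IFIT2, IFIT3 and IFIT5 had 0.15, 0.10 and -0.13.

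OAS1, OAS2 and OAS3 make the oligoadenylates that switch on RNase L, and OASL is a relative. Their differences were 0.11, 0.16, -0.027 and -0.067. The antiviral GTPases MX1 and MX2 had -0.069 and -0.043. RSAD2, or viperin, had 0.14, the exonuclease gene ISG20 -0.010, IFI27 0.064, IFI44 0.00055, IFI44L -0.077, XAF1, which favours apoptosis, 0.044, and IFITM1, which hinders viral entry, 0.0068. IFI6, an interferon-induced membrane protein, was 9.45, 9.34, 9.44 and 9.47 with negative siRNA, 9.35 and 9.33 with siRNA 7 and 9.15 and 9.13 with siRNA 9. It lay lowest with siRNA 9, and its difference, -0.18 (SE 0.082, unadjusted p = 0.0480, limma adjusted p = 0.912), was the lowest of the 31.

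Each reagent was also set against negative siRNA; the comparisons share the 4 negative arrays. With siRNA 7, 0 of the 31 passed in limma, where 0.0679% of all probe sets did. An unadjusted p under 0.05 was reached by 2 (7.46%), TLR3 and MX2, both lower (4.66%). Differences were below 0 for 20, against 50.7%, with a median of -0.041 beside -0.0021. With siRNA 9, 0 of the 31 passed in limma, where 0.924% of all probe sets did. An unadjusted p under 0.05 was reached by 6 (13.6%), of which TLR3, OAS2, TBK1, IFI27 and OAS1 were higher (8.05%) and IFI6 lower (5.56%). Differences were above 0 for 23, against 56.5%, with a median of 0.078 beside 0.023.

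**Figure D2:**
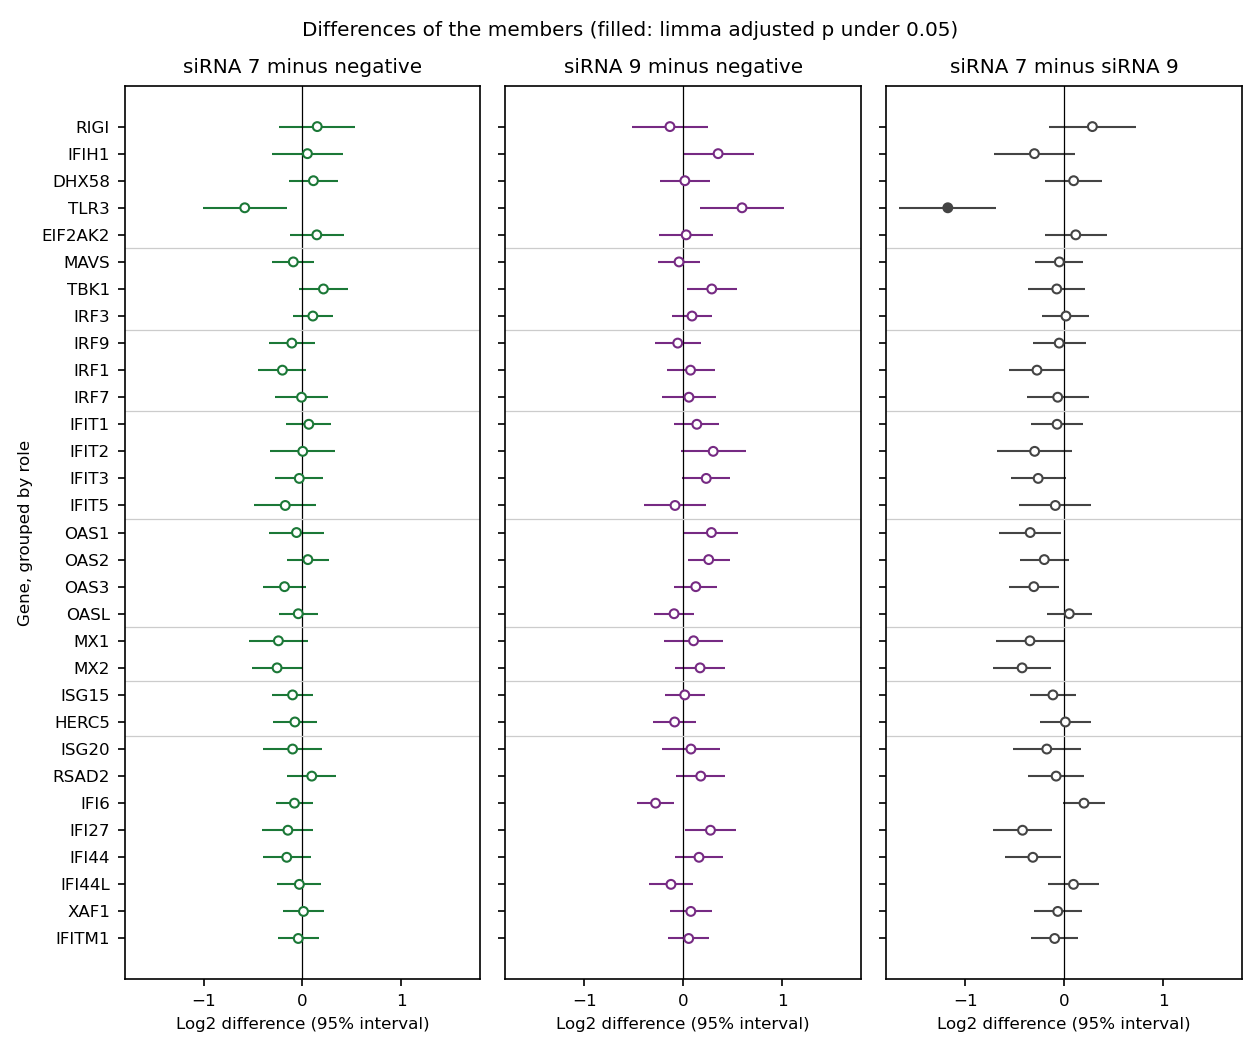
Points are log2 differences of the 31 genes and bars their 95% intervals, for siRNA 7 minus negative, siRNA 9 minus negative and siRNA 7 minus siRNA 9; filled points passed an adjusted p of 0.05. The single filled point is TLR3 between the reagents, at -1.18.

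With siRNA 9, TBK1, IFIT3, OAS2 and MX2 had both arrays above all negative arrays, where 13.4% of all probe sets did, and IFI6 both below, where 9.23% did. OAS2 was 5.87, 5.86, 5.77 and 5.74 with negative siRNA, 5.97 and 5.76 with siRNA 7 and 6.14 and 5.99 with siRNA 9. Its difference with siRNA 9 was 0.26 (limma adjusted p = 0.257). IFI6 had -0.28 (SE 0.086, limma adjusted p = 0.166), with the smallest unadjusted p of the 31 here, 0.00702. With siRNA 7, TLR3, OAS3, ISG15 and IFI44 had both arrays below all negative arrays, where 7.99% of all probe sets did, and 0 had both above, where 6.38% did. Apart from TLR3 these were small, at -0.18 for OAS3, -0.099 for ISG15 and -0.16 for IFI44. IFI44, at a mean level of 4.00, may not rise above background.

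Calls among the 31 with siRNA 9 depended on which arrays were fitted and how they were weighted. OAS1 was 10.07, 10.53, 10.13 and 10.18 with negative siRNA, 10.15 and 10.18 with siRNA 7 and 10.58 and 10.44 with siRNA 9. On negative array 2 it was as high as with siRNA 9. Over all probe sets negative array 2 was the lowest of the 8 arrays for 23.7%, the largest such share. Without that array 4 of the 31 passed in limma, all higher with siRNA 9, while 5.57% of all probe sets then passed. They were TLR3 at 0.73, IFIH1 at 0.49, OAS1 at 0.39 and TBK1 at 0.37 (adjusted p = 0.0291, 0.0352, 0.0300 and 0.0428). With arrays weighted by their spread, 9 passed, these with IFIT2, IFIT3, OAS2 and IFI27 higher and IFI6 lower, where 10.9% of all probe sets did. Both shares of the 31 stand above those of all probe sets, and with all arrays at equal weight 0 passed. The mean of the 31 genes, each centred over the arrays, was -0.046, 0.048, -0.041 and -0.0052 with negative siRNA, -0.045 and -0.086 with siRNA 7 and 0.12 and 0.051 with siRNA 9. Negative array 2 and siRNA 9 array 2 were level in it. Over all probe sets the same mean ran from -0.025 on negative array 2 to 0.040 on siRNA 9 array 1. Array 1 of siRNA 9 was the highest of the 8 for 12 of the 31 genes and for 18.2% of all probe sets.

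Between the reagents, TLR3 differed. It was 5.16, 5.84, 5.31 and 5.48 with negative siRNA, 5.14 and 4.59 with siRNA 7 and 6.25 and 5.84 with siRNA 9. The siRNA 7 arrays were the lowest of all, and negative array 2 was level with siRNA 9 array 2. The log2 difference, siRNA 7 minus siRNA 9, was -1.18 (SE 0.23, 95% interval -1.67 to -0.69, limma adjusted p = 0.0239). TLR3 was 1 of 31 past the threshold, a share near the 2.23% of all probe sets that passed, or 1.41% lower with siRNA 7. Against negative siRNA it was -0.58 with siRNA 7 and 0.59 with siRNA 9 (limma adjusted p = 0.448 and 0.190). The call ended without siRNA 7 array 2 (-0.90, adjusted p = 0.159), without siRNA 9 array 1 (-0.98, adjusted p = 0.262) or array 2 (-1.38, adjusted p = 0.125), and when all probe sets were tested (adjusted p = 0.115). A lone array left in a group is then assumed to vary like the other groups.

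The other 30 genes did not pass between the reagents. In all, 23 of the 31 were below 0, against 56.7% of all probe sets, with a median of -0.090 beside -0.028. An unadjusted p under 0.05 was reached by 7 (15.7%), all lower with siRNA 7 (9.58%): TLR3, MX2, IFI27, OAS3, IFI44, OAS1 and MX1. MX2 was 5.89, 5.76, 5.95 and 5.95 with negative siRNA, 5.82 and 5.44 with siRNA 7 and 6.10 and 6.02 with siRNA 9. The siRNA 7 arrays lay below both siRNA 9 arrays, a difference of -0.43 (95% interval -0.72 to -0.14, limma adjusted p = 0.128). IFI27 was 6.63, 6.98, 6.66 and 6.72 with negative siRNA, 6.71 and 6.50 with siRNA 7 and 7.10 and 6.94 with siRNA 9. Its difference was -0.42 (limma adjusted p = 0.141), and without negative array 2 it passed with TLR3 (adjusted p = 0.0437), where 5.48% of all probe sets did. Both siRNA 7 arrays lay below both siRNA 9 arrays for 15 of the 31, against 28.7% of all probe sets, and above them for OASL and IFI6, against 19.9%. ISG15 differed by -0.11 (-0.35 to 0.12) and IFIT1 by -0.072 (-0.33 to 0.19). TRIM44 differed by -0.060 (-0.36 to 0.24).

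**Figure D3:**
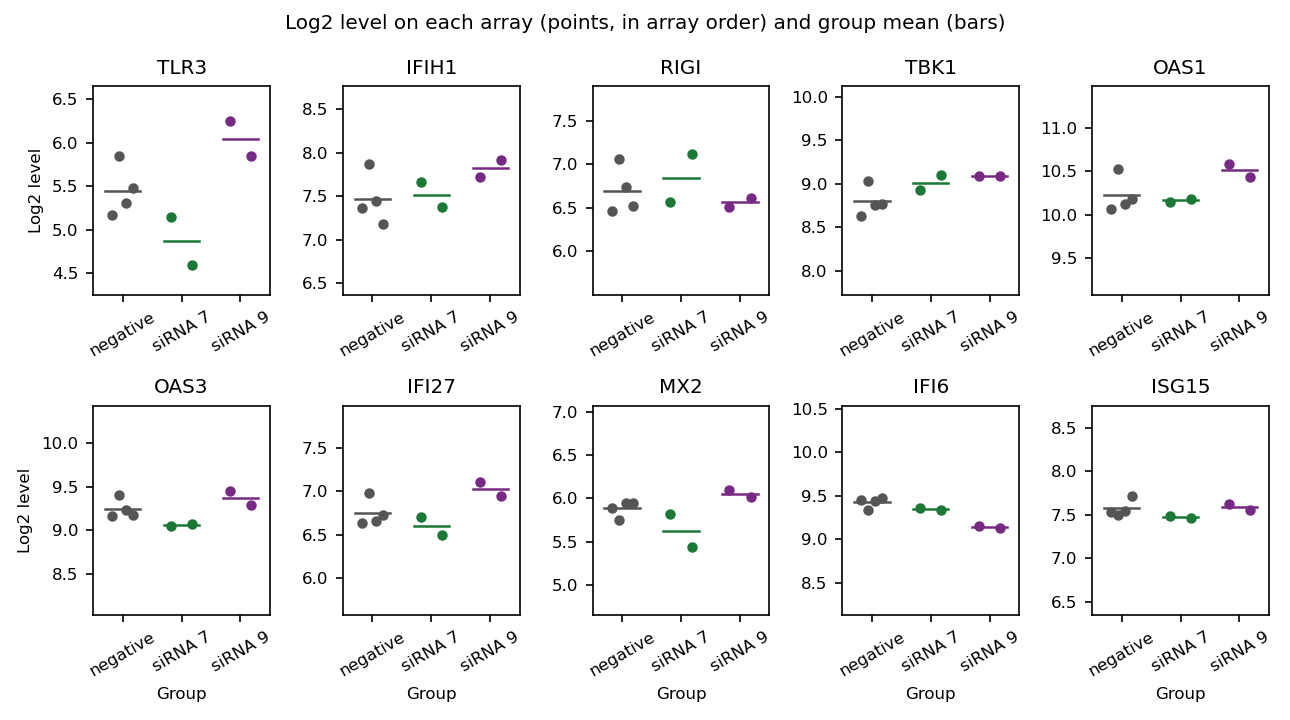
Points are log2 levels of 10 genes on single arrays and bars are group means (4 negative, 2 siRNA 7 and 2 siRNA 9 arrays). TLR3 has means of 5.45, 4.87 and 6.04 in that order, while ISG15 stays between 7.46 and 7.72.

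Of 106 other genes of the pathway, 96 were measured. With both reagents, siRNA 7 and siRNA 9 against negative siRNA, 0, 0 and 0 passed in limma, and 2, 13 and 14 had an unadjusted p under 0.05, where 5.43%, 7.46% and 13.6% of all probe sets did. The 13 with siRNA 7 were all lower, against 4.66% of all probe sets. With siRNA 9, 6 of the 96 passed without negative array 2 and 9 with array weights, where 5.57% and 10.9% of all probe sets did, so these shares lay near those of all probe sets. The medians of the 96 in the 3 comparisons were 0.0037, -0.065 and 0.046. The 16 interferon genes, some of them close copies of each other, had a median of 0.064 with both reagents. Among them the 4 of smallest unadjusted p in limma were IFNA21 at 0.19, IFNA10 at 0.17, IFNE, an epithelial interferon, at 0.13 and IFNL2, a lambda interferon, at -0.16. Their mean levels were 3.47, 3.83, 3.71 and 6.97, beside array medians of 6.78 to 6.87. Whether the low ones rise above background is not known, so their differences may not reflect expression. The 9 receptor and kinase genes had a median of 0.028, with IFNLR1, the lambda receptor, at 0.10, its partner chain IL10RB at 0.11, IFNGR1 at 0.10 and JAK1 at 0.063.

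The 20 further sensor genes had a median of 0.046. TLR7 and TLR8, endosomal sensors of single-stranded RNA, had 0.22 and -0.14, IKBKG, a regulatory subunit in NF-kappaB signalling, 0.19 and STING1, the adaptor of DNA sensing, -0.18. The 8 negative regulators had a median of 0.028. USP18, which removes ISG15, had -0.065, NLRX1 -0.10, NLRC5 -0.071 and TNFAIP3 0.11. The reagents differed in sign for TNFAIP3, at -0.22 with siRNA 7 and 0.44 with siRNA 9 (limma adjusted p = 0.878 and 0.250). Between the reagents it had -0.67 (limma adjusted p = 0.0989). NLRX1 had -0.22 with siRNA 7 and 0.015 with siRNA 9.

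The 43 further interferon-induced genes had medians of -0.058 with both reagents, -0.12 with siRNA 7 and 0.032 with siRNA 9. With siRNA 7, 35 were below 0, against 50.7% of all probe sets, and 12 had an unadjusted p under 0.05, against 7.46%. The adjusted threshold in limma was passed by 0, against 0.0679%. SP110, a nuclear body gene, was 7.36, 7.43, 7.45 and 7.29 with negative siRNA, 7.15 and 6.92 with siRNA 7 and 7.14 and 7.15 with siRNA 9. All TRIM44 siRNA arrays lay below the negative arrays, a difference of -0.29 (SE 0.083, limma adjusted p = 0.788). The same holds for IFI35, and these 2 of 96 genes stand beside 1.26% of all probe sets. IFI35 had -0.20, DTX3L, a ubiquitin ligase gene, -0.25, and the GTPase gene GBP2 -0.26 on its brighter probe set and -0.31 on the other. With siRNA 7 alone the brighter set had -0.47 (limma adjusted p = 0.132). It passed with array weights (limma adjusted p = 0.0458), where 70 probe sets passed, beside 13 in the main fit.

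TAP1, the peptide transporter of MHC class I loading and an interferon-induced gene, was the 1 gene of the 96 that passed between the reagents, where 2.23% of all probe sets did and 1.41% were lower with siRNA 7. Without negative array 2, 11 of the 96 passed, where 5.48% of all probe sets did, and with array weights 9, where 5.55% did. TAP1 did not have the largest difference. Among the 43 further interferon-induced genes the lowest between the reagents was -1.24, in a gene that did not pass in the main fit. With siRNA 7 against negative siRNA their lowest was -0.86, which did not pass either. TAP1 was 9.28, 9.39, 9.32 and 9.49 with negative siRNA, 8.97 and 8.61 with siRNA 7 and 9.62 and 9.48 with siRNA 9. The siRNA 7 arrays lay below all others, and siRNA 9 overlapped negative siRNA. The difference between the reagents was -0.76 (SE 0.13, 95% interval -1.05 to -0.48, limma adjusted p = 0.0175). Against negative siRNA it was -0.58 with siRNA 7 and 0.18 with siRNA 9 (limma adjusted p = 0.105 and 0.554). With siRNA 7 it passed in limma among the upper 50% of probe sets (adjusted p = 0.0387) and with a trended prior (adjusted p = 0.0260). In these fits 64 and 83 probe sets passed, beside 13 in the main fit, 1 after median centring and 0 with all probe sets tested. The call between the reagents ended without siRNA 7 array 2 (-0.59, adjusted p = 0.115), without siRNA 9 array 1 (-0.69, adjusted p = 0.198) or array 2 (-0.84, adjusted p = 0.125), and when all probe sets were tested (adjusted p = 0.0851).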

How the data were processed

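Each sample's RNA was read on 1 Affymetrix whole-transcript array, per the labels. The authors deposited log2 expression levels per probe set. Limma is named per the submitters' processing notes; background correction, normalization, filters and build have no statement in the sources used here, and the log base was read from the values. No signal over background is given, so depth in the sense of counts does not apply and the number of arrays limits precision.

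Symbols came from the platform annotation and were looked up in RefSeq by gene ID (19128 found, 0 changed). Probe sets with several symbols (1388) or none (11775) were left out; of several probe sets the brightest stands for a gene. Limma (lmFit, eBayes) was fitted to all 19158 others: 2 groups for the pooled reagents, 3 group means for single ones, 2-sided, Benjamini-Hochberg adjusted over all of them, threshold 0.05.

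The genes and lists were chosen with earlier results of these data known, and the promoter motif after values were seen. Named genes are TRIM44, the 31 measured genes, up to 4 genes per pathway list by smallest unadjusted p with both reagents, and any pathway gene past the threshold. Alternatives covered normalization (quantile, median), probe set filters (upper 50%, all), the prior, array weights, blocks (replicate, siRNA identity), the arrays fitted, and each array left out. The code was tested on simulated data. Software was R 4.3.3, limma 3.58.1, statmod 1.5.0 and, for plots, matplotlib 3.10.9.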

Additional observations from a re-analysis of the deposited data

Results flagged for a closer look

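TLR3 and TAP1 differed between the TRIM44 reagents, by -1.18 and -0.76 (log2, siRNA 7 minus siRNA 9, limma adjusted p = 0.0239 and 0.0175). The adjusted threshold was passed by 2.23% of all probe sets there. For each gene both siRNA 7 arrays lay below both siRNA 9 arrays, as they did for 28.7% of all probe sets. Each call ended when all probe sets were tested.

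Single negative arrays lay apart for a pair of genes. IRF1 was 8.32, 8.35, 8.33 and 8.03 on negative arrays 1 to 4, and the gap between array 4 and the nearest other array was 0.928 of the range. IFNGR1 was 8.85, 9.25, 8.77 and 8.81, and the gap between array 2 and the nearest other array was 0.845 of the range. Of 53 named genes examined 2 stood apart so far, and chance gives about 1 in 20.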

How the results depend on the processing

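Under every alternative run, none of the 31 genes passed in limma with both reagents or with siRNA 7. With siRNA 9, 22 of the 31 passed in none. Genes of the 31 passing for siRNA 9 numbered 9 with array weights, where 10.9% of all probe sets passed. Without negative array 2, 4 of the 31 passed for siRNA 9 and 2 for siRNA 7 minus siRNA 9, where 5.57% and 5.48% of all probe sets did. Genes of the 31 passing for siRNA 7 minus siRNA 9 numbered 0 with the upper 50% and 0 with all probe sets. With single arrays left out the number passing was 0 for both reagents, 0 for siRNA 7, 0 to 4 for siRNA 9 and 0 to 2 for siRNA 7 minus siRNA 9, and the median difference of the set -0.0324 to 0.0517 for both reagents, -0.0805 to -0.0415 for siRNA 7, 0.0281 to 0.15 for siRNA 9 and -0.166 to -0.0661 for siRNA 7 minus siRNA 9. The median for siRNA 7 minus siRNA 9 was -0.0467 after quantile normalization and -0.0493 after median centring; the cause was not tested. 

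Of all probe sets, 1 passed for both reagents, then 0 after median centring, 2 with the upper 50%, 0 with all probe sets, 2 with a trended prior, 33 with array weights, 0 with the replicate block, 4 with 3 group means and 0 with siRNA identity as a block, and 0 to 2 with arrays left out. Of all probe sets, 13 passed for siRNA 7, then 1 after median centring, 64 with the upper 50%, 0 with all probe sets, 83 with a trended prior, 70 with array weights, 0 with the replicate block and 1 with only the arrays compared, and 1 to 35 with arrays left out. Of all probe sets, 177 passed for siRNA 9, then 390 with the upper 50%, 28 with all probe sets, 405 with a trended prior, 2082 with array weights and 44 with the replicate block, and 0 to 1067 with arrays left out. Of all probe sets, 428 passed for siRNA 7 minus siRNA 9, then 703 with the upper 50%, 8 with all probe sets, 792 with a trended prior, 1063 with array weights and 807 with only the arrays compared, and 0 to 1050 with arrays left out. TRIM44 was -0.81 after median centring (adjusted p = 0.0804), -0.81 with all probe sets (adjusted p = 0.442), -0.88 with the replicate block (adjusted p = 0.998) and -0.81 with siRNA identity as a block (adjusted p = 0.226). It was -0.87 to -0.73 with arrays left out.

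Arrays of the same replicate number correlated in their deviations from group means at 0.024 to 0.31, and the numbers were not taken to pair samples. With the replicate block, 0, 0, 0 and 1 of the 31 genes passed for both reagents, siRNA 7, siRNA 9 and siRNA 7 minus siRNA 9. TLR3 is not among the upper 50% of probe sets, so its difference has no value there.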
